A study of Mus musculus with 22 samples.

Results

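The 10 genes described here encode matricellular and collagen cross-linking proteins: Sparc, Bgn, Fn1, Lox, Loxl1, Loxl2, Plod1, Plod2, P4ha1 and Serpinh1. They were taken by symbol as 10 entries of a table of read counts for 55367 mouse genes, and all 10 were among the 22409 genes tested. The table holds RNA-seq libraries of mouse liver cells labelled HSC, which commonly stands for hepatic stellate cells. The marker levels given below do not show mainly stellate cells. There were 12 libraries of mice fed CDA-HFD, a high-fat feed without choline and with defined amino acids that brings on steatohepatitis with fibrosis, and 10 of mice kept on chow. The mice were killed at zeitgeber time (ZT) 0 (lights on), 6, 12 (lights off) or 18. CDA-HFD groups held 3 libraries at each time, and chow groups held 3 (ZT0), 2 (ZT6), 2 (ZT12) and 3 (ZT18). All mice were 8 weeks old at the start of feeding and 20 weeks old at sampling, and no treatment other than the diet was given. The labels disagree on how long CDA-HFD was fed, with 12 weeks in one place and 6 months in another. No source used here gives the strain, the sex, whether animals were pooled or how the cells were isolated. Nothing in the labels ties a library to a separate animal, so the p-values rest on the scatter among these libraries, part of which may be technical.

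Collagen chains are modified in the endoplasmic reticulum before they are secreted: prolyl 4-hydroxylases stabilise the triple helix, lysyl hydroxylases prepare the residues that will be cross-linked, and a dedicated chaperone escorts the folded helix. Outside the cell, lysyl oxidases convert lysine side chains to aldehydes that join neighbouring fibres, while matricellular proteins, proteoglycans and fibronectin govern how the fibres assemble. In liver, activated stellate cells are known as the main source of cross-linked scar collagen, and sinusoidal endothelial cells also make several of these proteins.

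Under CDA-HFD, 7 of the 10 genes were lower than on chow over all times and 2 were higher. Those lower were Sparc, Bgn, Loxl1, Loxl2, Plod1, P4ha1 and Serpinh1, those higher were Fn1 and Plod2, and Lox was not called. In the same test (edgeR's quasi-likelihood test, Benjamini-Hochberg adjusted p under 0.05) 52.4% of all genes tested were called, 24.9% as lower and 27.5% as higher. The median log2 change of the 10 genes was -1.95, and that of all genes tested was 0.08. In 5 of the 10 genes (Sparc, Bgn, Loxl2, Plod1 and Serpinh1) every CDA-HFD library lay below every chow library, which held for 9.78% of all genes tested. None of the 10 had every CDA-HFD library above every chow library, against 7.35% of all genes tested.

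Facts of the whole set of libraries bear on these values. Libraries held 19754805 to 41665623 counts, and the first principal component (40.2% of the variance) parted all CDA-HFD libraries from all chow libraries. Replicate 2 of chow ZT0 lay nearest to the CDA-HFD libraries on that component, and replicate 1 of chow ZT18 stood apart on the second. Calls on the 10 genes that change without them are given with both values. Markers of several cell types moved with diet. All 18 endothelial markers tested were lower under CDA-HFD, with a summed level of 1591 to 3753 CPM (counts scaled to library size) in CDA-HFD libraries and 26286 to 52169 CPM in chow libraries. Of 16 stellate markers tested, 5 were higher and 3 lower, with sums of 109 to 228 CPM in CDA-HFD libraries and 182 to 420 CPM in chow libraries. In every library the endothelial sum was far above the stellate sum. The label HSC is therefore not taken here as the identity of the cells, and the results are not read as those of stellate cells. The widely used Lrat and Des were low in both diets. Lrat averaged 1.78 CPM under CDA-HFD and 1.81 CPM on chow. Des averaged 5.10 CPM under CDA-HFD and 5.82 CPM on chow. They do not stand for the whole stellate list, whose median log2 change was 0.60. The portal fibroblast sum was 261 to 455 CPM in CDA-HFD libraries and 471 to 1086 CPM in chow libraries, with 1 of 11 markers higher and 9 lower. The smooth muscle sum was 14.4 to 22.9 CPM in CDA-HFD libraries and 81.7 to 175 CPM in chow libraries, with 2 of 6 markers tested higher and 1 lower. Hepatocyte markers were higher in 13 of 16 (1081 to 2473 CPM in CDA-HFD libraries, 465 to 889 CPM in chow libraries). Cholangiocyte markers were higher in all 10 tested (1384 to 5224 CPM in CDA-HFD libraries, 381 to 992 CPM in chow libraries). Most of that sum was Spp1, at means of 2293 CPM under CDA-HFD and 485 CPM on chow. Spp1 is made by macrophages too and is named again below among the matricellular genes. Macrophage markers were higher in 13 of 16 and lower in 1 (2207 to 5280 CPM in CDA-HFD libraries, 583 to 3587 CPM in chow libraries). The 3587 CPM came from replicate 2 of chow ZT6, and the next chow library had 1161 CPM. That replicate is 1 of the 2 libraries behind every chow ZT6 value. Lymphocyte markers were higher in all 15 tested (2315 to 5487 CPM in CDA-HFD libraries, 459 to 1472 CPM in chow libraries). Of 11 dendritic cell and neutrophil markers 10 were higher and 1 lower (1260 to 1836 CPM in CDA-HFD libraries, 287 to 1007 CPM in chow libraries). Of 7 platelet markers tested 1 was higher and 1 lower (21.7 to 69.5 CPM in CDA-HFD libraries, 30.9 to 78.9 CPM in chow libraries). No marker was at 0 in every library of a diet. The part of these cell types in the results on the 10 genes was not tested. In bulk libraries like these, fewer cells of a type and less RNA per cell cannot be told apart.

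The promoters of 4 of the genes that were lower under CDA-HFD are shown, among them P4ha1, which also varied with time on chow. RefSeq sequences of GRCm38.p6 were at hand for 5 of the 10 genes, and that of Sparc is left out because it lies largely over annotated exons. Each line gives the 250 bases before the transcription start, 5′ to 3′ on the gene's strand, with capitals marking matches to any of the motifs searched. The windows are chr10:59323046-59323295 (plus strand, P4ha1), chr4:147936777-147937026 (minus strand, Plod1), chrX:73483351-73483600 (plus strand, Bgn) and chr7:99353240-99353489 (minus strand, Serpinh1).
P4ha1: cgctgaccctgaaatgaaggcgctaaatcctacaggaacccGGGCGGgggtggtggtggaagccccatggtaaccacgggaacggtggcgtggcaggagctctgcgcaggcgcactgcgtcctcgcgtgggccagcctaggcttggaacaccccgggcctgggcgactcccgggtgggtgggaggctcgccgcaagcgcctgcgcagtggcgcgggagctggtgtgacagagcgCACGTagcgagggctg
Plod1: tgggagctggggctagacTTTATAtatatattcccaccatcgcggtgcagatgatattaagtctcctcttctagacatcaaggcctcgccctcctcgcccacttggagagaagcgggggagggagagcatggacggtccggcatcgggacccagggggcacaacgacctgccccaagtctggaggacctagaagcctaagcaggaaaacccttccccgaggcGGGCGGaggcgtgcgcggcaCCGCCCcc
Bgn: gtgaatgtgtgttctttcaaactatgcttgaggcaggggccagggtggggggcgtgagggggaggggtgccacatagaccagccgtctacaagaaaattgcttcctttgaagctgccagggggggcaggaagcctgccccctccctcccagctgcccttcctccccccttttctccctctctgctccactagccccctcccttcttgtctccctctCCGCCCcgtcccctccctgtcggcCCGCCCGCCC
Serpinh1: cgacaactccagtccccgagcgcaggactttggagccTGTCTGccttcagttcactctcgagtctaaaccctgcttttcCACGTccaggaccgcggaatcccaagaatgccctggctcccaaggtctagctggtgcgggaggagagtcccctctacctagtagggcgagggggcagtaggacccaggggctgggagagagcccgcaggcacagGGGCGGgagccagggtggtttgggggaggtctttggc
On both strands, 10 motifs were searched. The window of P4ha1 held the hypoxia response core ACGTG 16 bases before the start, and that of Serpinh1 held it 171 bases before the start; 16.6% of 32851 mouse promoters of the same length held it. All 4 windows held the Sp1 box GGGCGG (32.7% of promoters), with 1 match in P4ha1, 2 in Plod1, 3 in Bgn, of which the last pair overlap in part, and 1 in Serpinh1. Serpinh1 also held the SMAD box CAGACA (17.1% of promoters) and Plod1 the box TATAAA 232 bases before the start (12.4%). None of the 4 windows held the E-box CACGTG (6.02% of promoters), which contains ACGTG, the D-box TTATGTAA (0.819%), the ROR element AGGTCA (14.02%), the heat shock element GAANNTTC (6.69%), CCAAT (33.8%) or the TEAD site GGAATG (12.6%). A match describes the letters in the window, not a bound site.

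**Figure D1:**
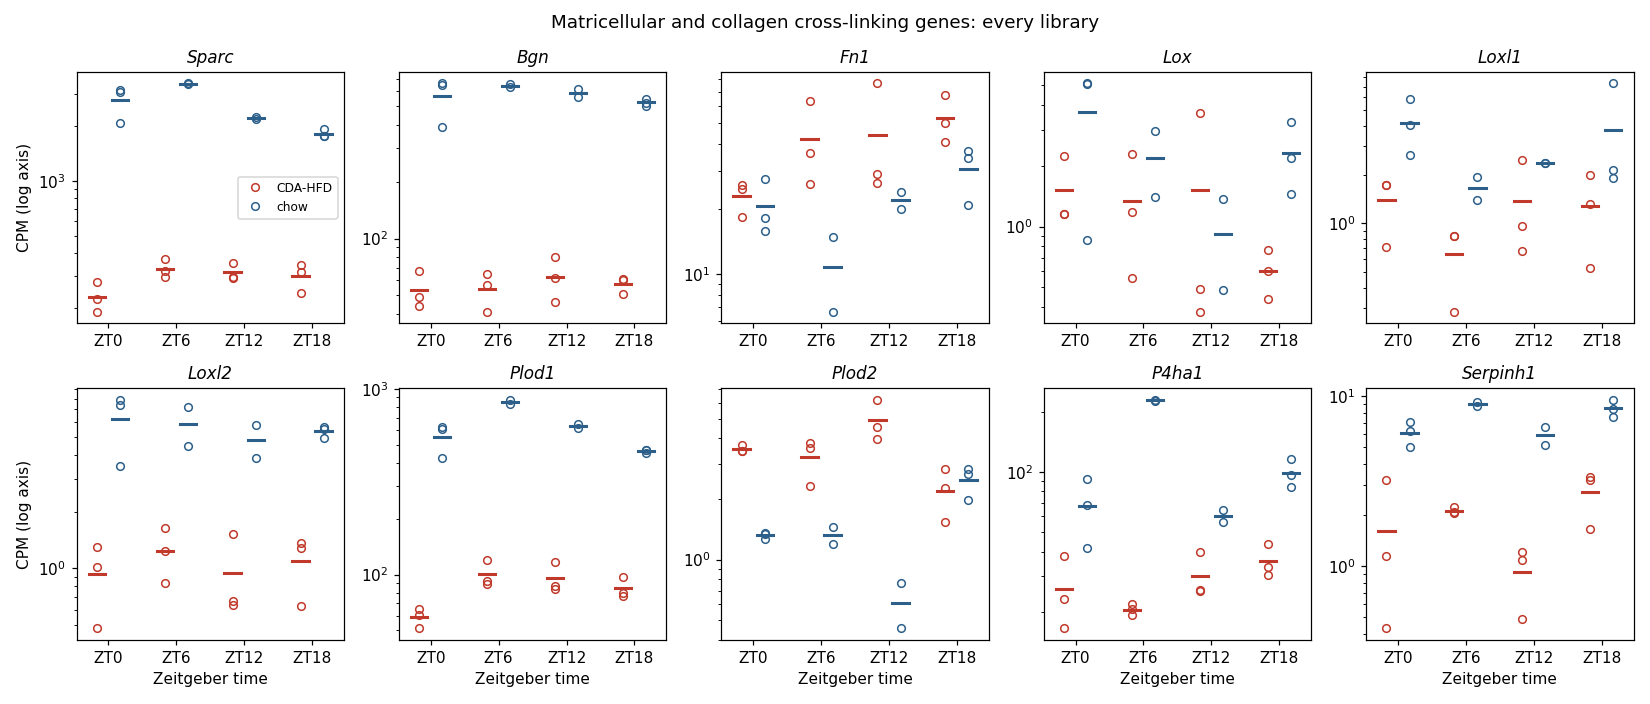
Level of each of the 10 genes in every library, in CPM on a log axis, against zeitgeber time; circles are libraries, bars are group means, CDA-HFD (red) stands left of chow (blue). For Sparc, Bgn, Loxl2, Plod1 and Serpinh1 all 12 CDA-HFD libraries lie below all 10 chow libraries, and for Plod2 8 and for Fn1 5 of the 12 lie above all chow libraries.

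Sparc and Bgn were the most reduced of the 10 genes. Sparc (chr11:55394500-55423183 on GRCm38), a collagen-binding matricellular glycoprotein, ranged over 189.98, 296 and 371 CPM (lowest, median and highest) in the CDA-HFD libraries and over 1762, 2223 and 3439 CPM in the chow libraries. The highest CDA-HFD library was thus far below the lowest chow library. The fitted log2 change was -3.10 ± 0.09 (SE; adjusted p = 1.88e-16 by edgeR's quasi-likelihood test), and the mean level was 8.54-fold lower under CDA-HFD. Bgn (chrX:73483602-73495933) encodes biglycan, a small leucine-rich proteoglycan that binds collagen fibrils. It ranged over 40.9, 58.3 and 79.8 CPM in the CDA-HFD libraries and over 387, 588 and 663 CPM in the chow libraries, again without overlap. Its log2 change was -3.35 ± 0.12 (adjusted p = 2.23e-15), and 2.21% of the genes tested had a lower log2 change. Without replicate 2 of chow ZT0, which held the lowest Bgn level of the chow libraries (387 CPM) and their lowest endothelial sum (26286 CPM), both genes stayed called.

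Fn1 moved the other way. It encodes fibronectin (chr1:71585520-71653200), an adhesive glycoprotein that hepatocytes secrete into plasma and mesenchymal cells deposit in the matrix. Fn1 ranged over 18.3, 32.8 and 76.7 CPM in the CDA-HFD libraries and over 6.64, 20.4 and 37.0 CPM in the chow libraries. The 2 sets overlapped, with 5 of 12 CDA-HFD libraries above every chow library. The log2 change was 0.98 ± 0.21 (adjusted p = 5.67e-04). At ZT6 Fn1 had 63.8, 36.3 and 26.0 CPM in the CDA-HFD libraries and 14.9 and 6.64 CPM in the chow libraries, and this was the single time with a call (1.96 ± 0.48, adjusted p = 0.00295). That call ended without replicate 2 of chow ZT6 (log2 1.48, adjusted p = 0.0802), the chow library with the lowest Fn1 level and the highest macrophage sum (3587 CPM). At ZT12 (3 libraries against 2) and ZT18 (3 against 3) the groups also did not overlap. How many of all genes do so at a single time was not counted. The log2 changes of Fn1 at ZT12 and ZT18, 1.00 ± 0.45 and 0.78 ± 0.39, were not called (adjusted p = 0.102 and 0.141). Without replicate 1 of chow ZT6 the ZT6 change was 2.65. At ZT12 Fn1 had 76.7, 29.2 and 26.4 CPM in the CDA-HFD libraries and 23.9 and 20.0 CPM in the chow libraries. The ZT12 test passed without replicate 3 of CDA-HFD ZT12 (1.27, adjusted p = 0.0487), whereas without replicate 1 of CDA-HFD ZT12, the high library, the change was 0.34 (adjusted p = 0.586). The hepatocyte sum was higher in every CDA-HFD library (1081 CPM or more) than in every chow library (889 CPM or less), and its part in the Fn1 result was not tested.

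Lox, Loxl1 and Loxl2 were rare transcripts in both diets. Loxl2 (chr14:69609068-69695834), an amine oxidase known to act on basement membrane collagen IV, had 10 to 47 counts in a CDA-HFD library and 73 to 227 in a chow library. It ranged over 0.478, 1.12 and 1.63 CPM in the CDA-HFD libraries and over 3.50, 5.59 and 7.88 CPM in the chow libraries, with no overlap. Its log2 change was -2.41 ± 0.25 (adjusted p = 5.13e-08). Loxl1 (chr9:58287738-58313186), best known for cross-linking elastin, ranged over 0.283, 0.900 and 2.46 CPM in the CDA-HFD libraries and over 1.40, 2.36 and 7.33 CPM in the chow libraries. Here 8 of the 12 CDA-HFD libraries lay below every chow library. Loxl1 changed by -1.32 ± 0.34 over all times (adjusted p = 0.00245) and was called at no single time, where adjusted p was 0.0726 to 0.448. At ZT0 (-1.58 ± 0.65, adjusted p = 0.0727) Loxl1 passed without both chow libraries that stand apart (-1.83, 0.0326), without replicate 1 of chow ZT18 alone (0.0474) and by DESeq2 (0.0439). At ZT18 (-1.57 ± 0.64, adjusted p = 0.0726) it passed without replicate 2 of chow ZT18 (-1.89, 0.0449) and by DESeq2 (0.0424), but its log2 change was -0.66 without replicate 1 of chow ZT18, which held the highest Loxl1 level (7.33 CPM). Lox itself (chr18:52516067-52529867), the founding lysyl oxidase, had 9 to 82 counts in a CDA-HFD library and 18 to 133 in a chow library. It ranged over 0.377, 0.956 and 3.67 CPM in the CDA-HFD libraries and over 0.483, 1.82 and 5.13 CPM in the chow libraries, and only 2 CDA-HFD libraries were below all chow libraries. The Lox change of -0.80 ± 0.42 was not called (adjusted p = 0.121). At ZT18 alone (-1.93 ± 0.82, adjusted p = 0.0829) Lox passed by DESeq2 (0.0463) and without replicate 1 of CDA-HFD ZT12 (0.0373). The highest CDA-HFD value of Lox came from replicate 1 of ZT12, against 0.377 and 0.490 CPM in the other two CDA-HFD libraries of that time. Without that replicate Lox was called lower over all times (-1.24, adjusted p = 0.00748), and likewise without all ZT12 libraries (-1.27, adjusted p = 0.0129). Of the 12 CDA-HFD libraries this one was also the highest in Bgn, Fn1, Loxl1 and Plod2. Its stellate (228 CPM), portal fibroblast (455 CPM), hepatocyte (2473 CPM), cholangiocyte (5224 CPM) and macrophage (5280 CPM) sums were the highest of the 12 too, and their part in these levels was not tested. The summed level of the 5 lysyl oxidase genes per length of transcript had a median of 2.58 RPKM (CPM per kilobase of exons) in CDA-HFD libraries and 14.6 RPKM in chow libraries. That sum includes Loxl3 and Loxl4, which are not among the 10 genes and made up most of it. Lox, Loxl1 and Loxl2 averaged 0.260, 0.355 and 0.194 RPKM under CDA-HFD and 0.507, 0.969 and 1.04 RPKM on chow. Within the sum of the 5 genes Loxl2 held a median of 7.72% in CDA-HFD libraries and 6.96% in chow libraries.

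The 2 lysyl hydroxylases of the group went in opposite directions. Plod1 (chr4:147909753-147936767), which hydroxylates lysines of the collagen helix, ranged over 51.2, 85.2 and 119.6 CPM in the CDA-HFD libraries and over 426, 612 and 874 CPM in the chow libraries. No library of either diet entered the range of the other, and the log2 change was -2.88 ± 0.09 (adjusted p = 2.88e-16). Plod2 (chr9:92542223-92608428) hydroxylates lysines of the telopeptides, the chain ends at which cross-links of fibrotic collagen form. It ranged over 1.53, 3.52 and 6.22 CPM in the CDA-HFD libraries and over 0.454, 1.35 and 2.83 CPM in the chow libraries. In 8 of the 12 CDA-HFD libraries Plod2 was above every chow library. Plod2 rose by 1.38 ± 0.20 on the log2 scale (adjusted p = 5.11e-06), with 44 to 139 counts in a CDA-HFD library and 10 to 73 in a chow library. Per length of transcript, Plod2 made up a median of 3.39% (range 1.25% to 4.68%) of the summed RPKM of Plod1, Plod2 and Plod3 in CDA-HFD libraries and 0.213% (0.0703% to 0.593%) in chow libraries. The share describes a sum that itself was lower, with a median of 19.8 RPKM in CDA-HFD libraries and 111 RPKM in chow libraries.

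P4ha1 and Serpinh1 act on collagen before secretion, and both were lower under CDA-HFD. P4ha1 (chr10:59323296-59373304) encodes the catalytic subunit of the main collagen prolyl 4-hydroxylase and ranged over 16.5, 25.5 and 43.7 CPM in the CDA-HFD libraries and over 41.5, 88.4 and 230.02 CPM in the chow libraries. All but 1 of the CDA-HFD libraries lay below every chow library. At each time the groups did not overlap, but a time holds only 3 libraries against 2 or 3. The share of all genes without overlap at a single time was not counted. Its log2 change over all times was -1.83 ± 0.14 (adjusted p = 7.76e-10). Serpinh1 (chr7:99345376-99353239) encodes HSP47, the chaperone that binds folded procollagen. It ranged over 0.430, 1.85 and 3.34 CPM in the CDA-HFD libraries and over 5.03, 7.28 and 9.53 CPM in the chow libraries, with no overlap and a log2 change of -2.08 ± 0.26 (adjusted p = 6.33e-07). Both diets had low counts of Serpinh1, 9 to 99 in a CDA-HFD library and 105 to 246 in a chow library.

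Reads of some members may include those of overlapping genes, since no source used here gives a strand setting. Annotated genes on the opposite strand overlap exons of Fn1 (Apol7d, 292 bases), Lox (AC161119.1, 30 bases), Loxl2 (Gm27177, 301 bases) and Plod2 (Gm38391, 346 bases). On the same strand the microRNA gene Mir6950 shares 7 exonic bases with Loxl2. No exonic overlap was found for the other 6 genes.

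**Figure D2:**
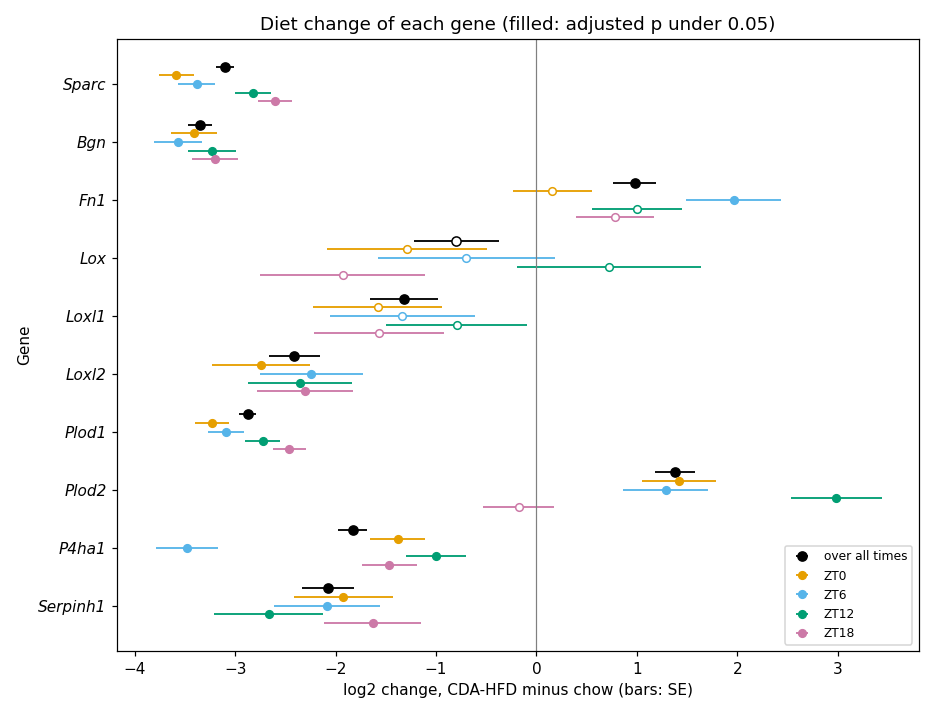
Log2 change under CDA-HFD relative to chow for each gene, over all times (black) and at each zeitgeber time (colours), with standard errors; filled points passed an adjusted p of 0.05. Sparc, Bgn, Loxl1, Loxl2, Plod1, P4ha1 and Serpinh1 lie below 0 at every time, Loxl1 without a call at any single time. Plod2 lies near 3 at ZT12 and near 0 at ZT18, and P4ha1 lies lowest at ZT6.

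Compared per length of transcript, Sparc was the most abundant of the 10 genes in both diets, at 77.4 ± 14.2 RPKM under CDA-HFD and 661 ± 181 RPKM on chow (SD, n = 12 and n = 10). In CDA-HFD libraries it was followed by Plod1 (12.5 ± 3.04 RPKM), Bgn (9.32 ± 1.83), P4ha1 (6.84 ± 2.15), Fn1 (3.46 ± 1.67), Serpinh1 (0.757 ± 0.422), Plod2 (0.644 ± 0.225), Loxl1 (0.355 ± 0.202), Lox (0.260 ± 0.210) and Loxl2 (0.194 ± 0.0718). Of the neighbours in that order, those from Sparc to Plod1 and from Fn1 to Serpinh1 were apart by more than their SDs, and the SD ranges of the others met. In chow libraries the order was Sparc, Bgn (94.1 ± 14.4 RPKM), Plod1 (89.0 ± 23.1), P4ha1 (26.2 ± 16.4), Serpinh1 (3.01 ± 0.662), Fn1 (1.88 ± 0.784), Loxl2 (1.04 ± 0.279), Loxl1 (0.969 ± 0.592), Lox (0.507 ± 0.347) and Plod2 (0.284 ± 0.141). There the steps from Sparc to Bgn, from Plod1 to P4ha1 and from P4ha1 to Serpinh1 exceeded the SDs. Fn1 thus stood above Serpinh1 in CDA-HFD libraries and below it in chow libraries, and Plod2, which followed Serpinh1 under CDA-HFD, was last on chow.

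At single times 6 to 8 of the 10 genes were called. At ZT0, 6 members were lower and Plod2 was higher (30% of all genes tested were called), and at ZT6, 6 were lower and Fn1 and Plod2 were higher (30.1%). At ZT12, 6 were lower and Plod2 was higher (29.6%), and at ZT18, 6 were lower (30.9%). The 6 lower at each time were Sparc, Bgn, Loxl2, Plod1, P4ha1 and Serpinh1. On the log2 scale Sparc changed by -3.58 ± 0.18 (ZT0), -3.38 ± 0.18 (ZT6), -2.82 ± 0.18 (ZT12) and -2.60 ± 0.17 (ZT18). Bgn changed by -3.20 to -3.57 and Loxl2 by -2.24 to -2.74 over the 4 times. Serpinh1 ranged between -1.63 ± 0.48 at ZT18 and -2.67 ± 0.54 at ZT12, and its ZT18 call ended without replicate 2 of CDA-HFD ZT18 (-1.37, adjusted p = 0.0672). At ZT0 Serpinh1 changed by -1.92 ± 0.49, and by -2.92 without replicate 2 of CDA-HFD ZT0 (3.23 CPM, against 1.15 and 0.430 CPM in the other two). The Plod2 call at ZT6 (1.29 ± 0.42, adjusted p = 0.0244) ended without any of 4 libraries: replicates 1 and 3 of CDA-HFD ZT6 (adjusted p = 0.0730 and 0.0611) and replicates 1 and 2 of chow ZT6 (0.212 and 0.106). The P4ha1 call at ZT12 (-0.998 ± 0.30, adjusted p = 0.0143) ended without replicate 2 or 3 of CDA-HFD ZT12 (0.0586 and 0.0570) or replicate 1 of chow ZT12 (0.115).

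P4ha1 varied with time on chow, where it peaked at ZT6. Under CDA-HFD it had 16.5, 23.2 and 38.0 CPM at ZT0, 21.7, 20.6 and 19.2 CPM at ZT6, 39.7, 25.3 and 25.7 CPM at ZT12, and 30.5, 43.7 and 33.6 CPM at ZT18. The times overlapped there, and ZT6 was not high. On chow it had 68.2, 41.5 and 92.5 CPM at ZT0, 230.02 and 228 CPM at ZT6, 64.8 and 55.999 CPM at ZT12, and 84.3, 97.2 and 115.9 CPM at ZT18. Both chow libraries of ZT6 lay above all the others. Across times P4ha1 was not called under CDA-HFD (adjusted p = 0.418, edgeR's quasi-likelihood F test) and was called on chow (adjusted p = 0.00157). The diet difference was -1.38 ± 0.27 (ZT0), -3.48 ± 0.31 (ZT6), -0.998 ± 0.30 (ZT12) and -1.46 ± 0.27 (ZT18) on the log2 scale, and it differed between times (adjusted p = 0.0183). This call ended without replicate 2 of CDA-HFD ZT6 (adjusted p = 0.0522) and held without each of the other 21 libraries.

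Plod2 was the other gene whose diet difference varied with time. Under CDA-HFD it had 3.45, 3.71 and 3.44 CPM at ZT0, 3.80, 2.32 and 3.59 CPM at ZT6, 6.22, 3.98 and 4.56 CPM at ZT12, and 2.80, 2.26 and 1.53 CPM at ZT18, so that ZT12 was highest there. On chow it had 1.26, 1.34 and 1.35 CPM at ZT0, 1.197 and 1.45 CPM at ZT6, 0.454 and 0.763 CPM at ZT12, and 2.83, 2.66 and 1.98 CPM at ZT18. All 3 chow libraries of ZT18 were above, and both of ZT12 below, the other chow libraries. The log2 diet difference was 1.42 ± 0.37 (ZT0), 1.29 ± 0.42 (ZT6), 2.99 ± 0.45 (ZT12) and -0.18 ± 0.36 (ZT18), and the test of a difference between times gave an adjusted p of 0.0364. That call was kept without any one of 7 libraries (replicate 2 of CDA-HFD ZT12, replicate 1 of CDA-HFD ZT18, replicates 1, 2 and 3 of chow ZT0, replicate 1 of chow ZT6 and replicate 3 of chow ZT18) and ended without any one of the other 15, with adjusted p of 0.0522 to 0.109. Across times Plod2 was not called under CDA-HFD (adjusted p = 0.355). On chow it was (adjusted p = 0.0319), a call that ended without any one of replicates 1 and 2 of chow ZT6, ZT12 or ZT18 (adjusted p = 0.0655 to 0.182) and without both libraries that stand apart (0.0723). Of all genes tested, 0.959% were called for a diet difference that varied with time.

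**Figure D3:**
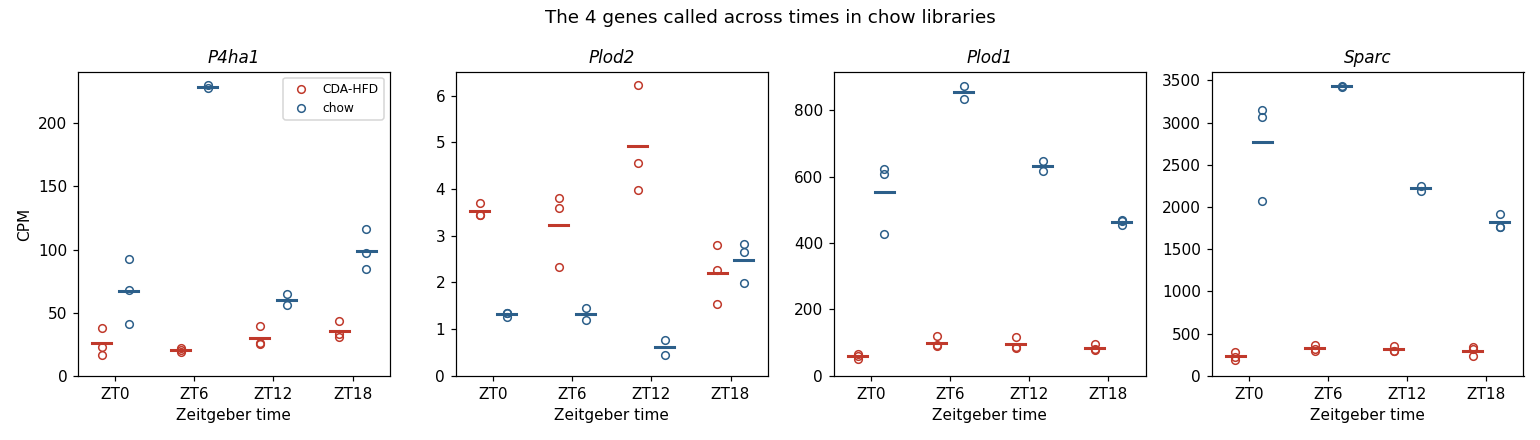
CPM (linear axis from 0) of the 4 genes called across times in chow libraries, against zeitgeber time; circles are libraries, bars are group means, CDA-HFD (red) stands left of chow (blue). P4ha1 on chow stands at 228 and 230.02 CPM at ZT6, and Plod2 under CDA-HFD is highest at ZT12 while its chow libraries are lowest there.

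Across times under CDA-HFD 1 of the 10 genes was called, Plod1 (1.08% of all genes tested), and on chow 4 were, Sparc, Plod1, Plod2 and P4ha1 (5.74%). Under CDA-HFD Plod1 averaged 58.9 ± 7.04 CPM (ZT0), 100.2 ± 16.8 (ZT6), 95.7 ± 18.3 (ZT12) and 84.2 ± 10.8 (ZT18) (SD, n = 3 each; adjusted p = 0.0477 by edgeR's quasi-likelihood F test). This call was kept without replicate 1 or 2 of CDA-HFD ZT12 or replicate 2 of chow ZT0 and ended without any one of the other 19 libraries (adjusted p = 0.0501 to 0.228). Sparc averaged 2766 ± 599 CPM on chow at ZT0 (SD, n = 3), 3429 ± 13.7 at ZT6 (n = 2), 2223 ± 39.8 at ZT12 (n = 2) and 1817 ± 91.8 at ZT18 (n = 3), with adjusted p = 0.0126 by edgeR's quasi-likelihood F test. Plod1 averaged 552 ± 110 CPM (ZT0), 854 ± 28.1 (ZT6), 632 ± 22.2 (ZT12) and 463 ± 8.88 (ZT18) on chow (adjusted p = 0.0156), a call that ended without replicate 1 or 2 of chow ZT6 (adjusted p = 0.0894 and 0.0661). Both genes were highest at ZT6 and lowest at ZT18. The endothelial marker sum on chow had the same order at those ends, 49519 and 52169 CPM at ZT6 and 33981 to 35920 CPM at ZT18, and its part was not tested. The diet difference of Sparc was not called as varying with time (adjusted p = 0.0683), but was without replicate 2 of chow ZT0 (0.00373) and without both libraries that stand apart (0.00656). With all libraries it was also called by DESeq2 (0.00468), with library size only (0.0448), at a mean CPM of at least 5 (0.0423) and with no filter (4.50e-08). With no filter its largest log2 spread between times was 0.97, against 0.98 with the filter. The smaller p-value thus came at nearly the same change, and why was not tested. The diet difference of Plod1 was not called either (adjusted p = 0.188), and passed without the same libraries (0.0270 and 0.0477) and with no filter (0.0087). A ribosomal RNA entry took 9.98% to 13.8% of counts at ZT18 and 15.6% to 21.7% at the other times. Without it Plod1 under CDA-HFD was no longer called (adjusted p = 0.0682).

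Partners of these genes in collagen modification and folding were largely lower too. Of 20 such genes tested over all times, 15 were lower under CDA-HFD, 1 was higher and 4 were not called, with a median log2 change of -1.04. Of all genes tested, 24.9% were lower and 27.5% higher over all times. Across times, 5.74% of all genes were called on chow and 1.08% under CDA-HFD. These shares are the background for the counts of every list below. Crtap, a subunit of the prolyl 3-hydroxylase complex, averaged 24.4 ± 4.47 CPM under CDA-HFD and 120.4 ± 14.3 CPM on chow (-2.34 ± 0.07, adjusted p = 2.88e-16). The peptidyl-prolyl isomerases Fkbp9 (-3.05 ± 0.12) and Fkbp7 (-3.03 ± 0.13) fell as well. The gene that rose, named after its value was seen, was Tmem38b, an ion channel of the endoplasmic reticulum needed for collagen processing (2.08 ± 0.20). Across times on chow 4 of the 20 were called. Pdia3, a protein disulfide isomerase, averaged 682 CPM (ZT0), 1467 (ZT6), 609 (ZT12) and 781 (ZT18) on chow (adjusted p = 2.33e-05), and its diet difference varied with time (0.00177). The other three, named after their values were seen, were P4hb, the partner subunit of P4ha1, P3h2 and Colgalt1. P4hb averaged 644, 889.7, 625 and 597 CPM at ZT0, ZT6, ZT12 and ZT18 on chow (adjusted p = 0.0223). As for P4ha1, ZT6 was the highest of the 4 chow groups for Pdia3, P4hb and P3h2 (75.7 CPM), but not for Colgalt1. The P4ha1 share of the summed RPKM of P4ha1, P4ha2 and P4ha3 had a median of 85.2% (range 75.4% to 92.0%) in CDA-HFD libraries. In chow libraries it was 76.2% (61.6% to 81.3%). At ZT6 the order was the other way, with medians of 77.8% in CDA-HFD libraries and 80.8% in chow libraries.

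Genes of procollagen processing and cross-linking moved in both directions. Of 15 tested, 6 were lower and 4 were higher, with a median of -0.49, beside 24.9% and 27.5% of all genes tested. Pcolce, an enhancer of procollagen cleavage (-2.92 ± 0.18), the transglutaminase Tgm2 (-2.10 ± 0.13) and the lysyl oxidase Loxl3 (-3.18 ± 0.21) fell. Loxl3 averaged 6.06 ± 2.23 CPM under CDA-HFD and 53.3 ± 15.7 CPM on chow. The 4 that were higher, named after their values were seen, were the procollagen protease Adamts14 (2.90 ± 0.37), the transglutaminases F13a1 (2.25 ± 0.48) and Tgm1 (1.92 ± 0.78, at means of 0.756 CPM under CDA-HFD and 0.518 CPM on chow), and the collagen receptor Mrc2 (1.45 ± 0.44). Tgm1 was near the floor in both diets, and its means lay closer together than its fitted change. F13a1 is also made by macrophages. Their marker sum was mostly higher under CDA-HFD, and its part in the F13a1 rise was not tested.

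Small leucine-rich proteoglycans, the family of Bgn, were lower in 8 of 9 tested of 11 listed (median -2.03). Prelp averaged 29.5 ± 8.13 CPM under CDA-HFD and 332 ± 66.6 CPM on chow (-3.53 ± 0.14, adjusted p = 9.07e-15), and Ecm2 (-3.32 ± 0.36) and Fmod (-2.43 ± 0.36) fell too. The matricellular and SPARC family did not follow Sparc as a block: of 22 genes 7 were lower and 8 higher, with a median of -0.16. Over all genes tested 24.9% were lower and 27.5% higher. Ccn4 averaged 2.76 ± 0.641 CPM under CDA-HFD and 64.4 ± 15.6 CPM on chow (-4.52 ± 0.14), and the thrombospondin Thbs2 fell too (-3.46 ± 0.29). Osteopontin (Spp1), which cholangiocytes and macrophages also make, averaged 2293 ± 1082 CPM under CDA-HFD and 485 ± 136 CPM on chow (2.23 ± 0.17). Ccn1 was called across times under CDA-HFD, at mean levels of 17.1, 50.5, 47.0 and 77.4 CPM at ZT0, ZT6, ZT12 and ZT18 (adjusted p = 0.0376).

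Of 19 fibronectin receptors and matrix partners, 13 were lower and 4 higher under CDA-HFD (median -1.10), whereas Fn1 itself was higher. Emilin1, an elastic fibre glycoprotein (-3.66 ± 0.11), and the integrin subunits Itga9 (-3.01 ± 0.10) and Itga8 (-2.80 ± 0.15) fell. The 4 that rose, named after their values were seen, were the fibronectin-binding integrin subunits Itgav (1.59 ± 0.13) and Itga4 (2.73 ± 0.22), the syndecan Sdc4 (1.40 ± 0.10) and vitronectin (Vtn, 1.62 ± 0.15). Itga4 is abundant on leukocytes and Vtn is made by hepatocytes. The marker sums of those cells were mostly higher under CDA-HFD, and their part in these rises was not tested. Itga8 was called across times on chow (67.7, 55.1, 30.7 and 20.7 CPM at ZT0, ZT6, ZT12 and ZT18, adjusted p = 0.00255) and its diet difference varied with time (0.0385). Itgb1 was called across times under CDA-HFD (289, 349, 344 and 416 CPM, adjusted p = 0.0380).

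The collagens on which these enzymes act were lower in 13 of 19 tested and higher in 3 (median -1.15). Col4a2 and Col4a1, the chains of the main basement membrane collagen, fell (-3.17 ± 0.12 and -3.30 ± 0.13), as did the transmembrane collagen Col13a1 (-4.17 ± 0.20). Those higher, named after their values were seen, were Col4a5 (1.40 ± 0.36), Col15a1 (1.39 ± 0.41) and Col18a1 (1.23 ± 0.24). Col4a2 was called across times under CDA-HFD (adjusted p = 0.0334) and on chow (0.00548), and its diet difference varied with time (0.0274).

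Lists of inducible genes to which some members belong were mixed. P4ha1 and Plod2 are known targets of hypoxia-inducible factor. Of 17 other hypoxia-induced genes 8 were lower and 4 higher (median -0.21), beside 24.9% and 27.5% of all genes tested. Ndrg1 (-2.85 ± 0.10), P4ha2 (-3.33 ± 0.19) and Adm (-2.93 ± 0.18) fell. Egln3, Slc2a1, Ldha and Ankrd37, named after their values were seen, rose by 0.32 to 1.55. Pfkfb3 was called across times on chow (adjusted p = 0.00556). Serpinh1 is a heat shock factor target, but of 18 other such genes 11 were higher and 2 lower (median 0.42). Those lower were Hspb1 (-1.57 ± 0.15) and Bag3 (-0.94 ± 0.09), and Hspd1 rose by 0.59. Across times 4 of these 18 were called under CDA-HFD, Hspa1a with the smallest p (adjusted p = 0.00845), and 13 on chow, Dnaja1 with the smallest (2.68e-05). For Serpinh1 the adjusted p across times was 0.371 under CDA-HFD and 0.774 on chow. Of 19 core clock genes 7 were lower and 6 higher over all times, beside 24.9% and 27.5% of all genes tested. Those called included Nr1d1 (-1.88 ± 0.11), Nfil3 (3.22 ± 0.17) and Bhlhe40 (2.15 ± 0.12). Across times 4 of the 19 clock genes were called under CDA-HFD and 14 on chow, beside 1.08% and 5.74% of all genes tested. Dbp had the smallest p in both (adjusted p = 6.66e-04 under CDA-HFD and 3.02e-09 on chow).

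**Figure D4:**
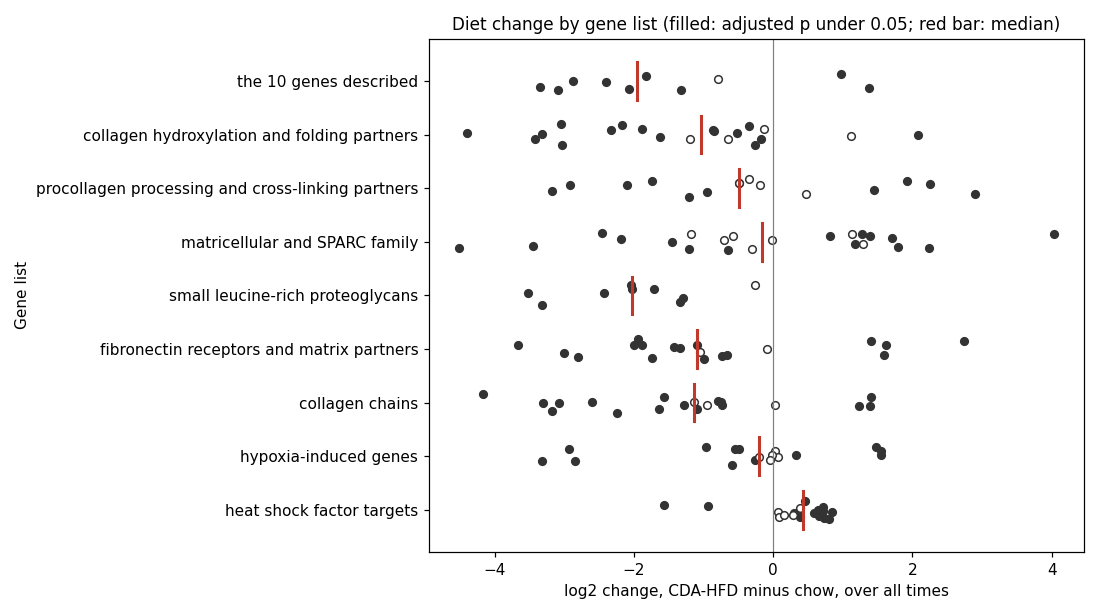
Log2 change under CDA-HFD relative to chow, over all times, of the 10 genes and of 8 lists of related genes; each point is a gene, filled where adjusted p was under 0.05, and the red bar is the list's median. The medians run from -2.03 for small leucine-rich proteoglycans to 0.42 for heat shock factor targets.

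Some other genes had profiles close to those of the members. Likeness was the root mean square difference of log2 CPM group means over the 8 groups, each profile centred on its own mean, so that diet differences weigh heavily in it. The nearest gene was Jcad for Bgn (0.06), Chst15 for Sparc (0.09), Rarb for Plod1 (0.08) and Snx21 for Loxl2 (0.08). The nearest 3 also held Bvht and Mgll for Bgn, Osmr and Tspan9 for Sparc, Npdc1 and Dock1 for Plod1, and Pik3c2b and Tlnrd1 for Loxl2. For the other 6 genes the nearest neighbour lay at 0.19 or more. Il33 (0.29), Nudt12 and Edn1 were nearest to P4ha1, and Atp13a3 (0.32), Igf2r and Shcbp1 to Plod2. Plk2 (0.27), Ctnnd1 and Hdc were nearest to Serpinh1, Ces1d (0.19), Usp53 and Plscr2 to Fn1, Mical2 (0.24), Nefh and Septin4 to Lox, and Col3a1 (0.31), Rarres2 and Camsap2 to Loxl1.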

How the data were processed

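Total RNA was sequenced on an Illumina instrument, per the labels' protocols. The submitters' processing notes name STAR 2.7.9a, HTSeq and DESeq2 and the build GRCm38 (mm10); no source used here gives the annotation or strand setting. The deposited table holds whole-number read counts per gene symbol, used here as they stand; the deposited normalised table was not used. Columns were matched to samples by the labels' descriptions and groups taken from titles. Genes were kept by filterByExpr over the 8 groups, scaled by TMM and tested in 1 fit of all 22 libraries with edgeR 4.0.16 (glmQLFit, glmQLFTest) in R 4.3.3, since 2 chow groups hold 2 libraries. Contrasts were diet over all times (the mean of the 4 differences), at each time, F tests over times in each diet, and the diet by time interaction. Genes were called at a Benjamini-Hochberg adjusted p under 0.05 over all 22409 tested. CPM used TMM-scaled library sizes, and RPKM divided it by the union of exons in GENCODE M21. Log2 CPM profiles used a prior count of 2. Scripts were tested on simulated counts. The members and lists were chosen with earlier results of these data known. The rule names all 10 members and, of each partner list, the 3 genes with the smallest p for diet and the 1 with the smallest p over times in each diet, where called, and the 3 genes nearest to each member with a mean log2 CPM of at least 2. Alternatives were RLE scaling, library size only, no filter, DESeq2 1.42.0, a filter at a mean of 5 CPM, a block for replicate number, each library or time left out, and 2 chow libraries left out together; leaving out the most abundant entry was added after the data were seen. No pair of replicates was a repeat.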

Additional observations from a re-analysis of the deposited data

Results flagged for a closer look

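The diet difference of 2 of the 10 genes varied between zeitgeber times by the interaction test of edgeR's quasi-likelihood fit. For P4ha1 (adjusted p = 0.0183) the log2 change was -3.48 ± 0.31 at ZT6 and between -0.998 and -1.46 at the other times. For Plod2 (adjusted p = 0.0364) it was 2.99 ± 0.45 at ZT12 and -0.18 ± 0.36 at ZT18, where the groups overlapped. Both rest on few libraries, 2 of them on chow at ZT6 and 2 at ZT12.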

How the results depend on the processing

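The diet calls over all times of the 9 called genes held under every alternative that kept them; a mean CPM of at least 5 removed Lox, Loxl1, Loxl2, Plod2 and Serpinh1 from the test. For single members, apart from leaving out a single library, 611 values kept their side of the threshold and direction, 20 newly passed, 9 no longer passed and none reversed. These counts include the fits without the 2 chow libraries that stand apart and without all libraries of a time. With a library left out, 1699 did not change, 7 newly passed, 52 no longer passed and 2 uncalled values changed sign: Lox at ZT12 ran from -1.06 (without replicate 1 of CDA-HFD ZT12) to 1.63, and Plod2 at ZT18 from -0.39 to 0.024 (without replicate 3 of CDA-HFD ZT18). The cause was not tested. With no filter on low counts the Plod2 calls at ZT0 (adjusted p = 0.102), at ZT6 (0.280), over times on chow (0.298) and in the interaction (0.132) ended, while Fn1 was newly called at ZT12 (8.16e-05), at ZT18 (4.90e-04), over times under CDA-HFD (2.79e-06) and on chow (1.56e-07) and in the interaction (6.74e-06), Sparc (0.0017) and P4ha1 (8.14e-04) over times under CDA-HFD, and Sparc and Plod1 in the interaction. With no filter the log2 change of Fn1 was 1.03 at ZT12 and 0.81 at ZT18, against 1.00 and 0.78 with the filter. Its new calls at these times thus came with smaller p-values at nearly the same change, and why was not tested. Counts over all genes depended more on the setting. Times under CDA-HFD called 241 genes, 561 with library size only, 1500 with no filter, 425 at a mean CPM of at least 5, 632 without the 2 chow libraries that stand apart, 1095 by DESeq2 and 96 to 663 with a library left out. Times on chow called 1287, 2866 with no filter, 3084 by DESeq2 and 790 to 1957 with a library left out. The interaction called 215, 2085 with no filter, 388 at a mean CPM of at least 5, 1004 without those 2 libraries, 1438 by DESeq2 and 76 to 1086 with a library left out. Same-numbered libraries did not deviate together (median correlation -0.00464, over 0.1 in 2 of 71 pairs), so numbers were not read as pairs. With the replicate block the interaction called 123 genes, and the calls of Plod2 in the interaction (adjusted p = 0.0563) and of Plod1 over times under CDA-HFD (0.0571) ended. RLE scaling ended that Plod1 call too (0.0583). Library size only gave 7635 genes higher and 4557 lower over all times, against 6161 and 5587 with TMM, and gave 4585 and 2593 at ZT6 (TMM 3316 and 3436) and 4221 and 2683 at ZT12 (TMM 3205 and 3436). It put the median log2 change of all genes at 0.25 over all times, against 0.08 with TMM, and turned the direction of none of the 9 called genes. Counts under 50 per library limit Lox, Loxl1, Loxl2, Plod2 and Serpinh1.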
